A study of Homo sapiens with 2 samples.

Results

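The 7 miRNAs described here are best known from neurons and were followed in a breast cancer cell line: hsa-miR-9-5p, hsa-miR-9-3p, hsa-miR-128-3p, hsa-miR-137, hsa-miR-218-5p, hsa-miR-124-3p and hsa-miR-132-3p. They were chosen by name, with their values in these libraries already known, and all 7 were found among the 407 miRNAs of the count table, of which 357 carry miRNA names and 50 are numbered predictions. BT549 is an established line of breast cancer cells. Both libraries came from BT549 cells that overexpress the long non-coding RNA SNHG15 carrying MS2 hairpins, phage RNA loops to which the MS2 coat protein (MCP) attaches. Cell lysate was held for 5 h at 4 °C with amylose resin coated with MBP-MCP, a fusion of MCP to maltose binding protein (MBP), or with amylose resin alone, here called the bare resin, and the RNA left on each resin after washing was sequenced for miRNAs. The study set out to characterise the miRNAs that associate with SNHG15. There was 1 library per resin, with 202560 reads for the MBP-MCP resin and 111414 for the bare resin, which leaves every difference without replicates, and no p-value between the resins was computed. Since the bare resin lacks the MBP-MCP protein as well as the tagged RNA it holds, RNA bound to either cannot be told apart.

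A miRNA is cut from a hairpin whose 5′ and 3′ sides give the 5p and 3p arms, and one arm usually dominates. Bases 2 to 8 of the arm, the seed, pair with target RNAs, which are then repressed. In the nervous system miR-124 promotes neuronal identity by repressing non-neuronal genes such as PTBP1, miR-9 acts in neural progenitors, miR-128 restrains neuronal excitability, miR-132 is induced by CREB in active neurons, miR-137 acts in neuronal maturation and miR-218 is abundant in motor neurons. Several are also studied outside the brain: miR-9 represses E-cadherin in breast cancer cells.

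The mature sequences are shown because the seeds tell these miRNAs apart. They are RefSeq's (GRCh38.p14), written 5′ to 3′ with the seed in capitals. The count table names no arm for miR-137, and the sequence shown is the one RefSeq lists as its 3p arm. The sequence of miR-124-3p is not shown.
miR-9-5p: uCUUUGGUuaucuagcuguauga
miR-9-3p: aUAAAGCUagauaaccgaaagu
miR-128-3p: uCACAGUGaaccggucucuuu
miR-137: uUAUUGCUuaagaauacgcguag
miR-218-5p: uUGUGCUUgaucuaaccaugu
miR-132-3p: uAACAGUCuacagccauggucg
No seed among these 6 was shared between members. The pair from one precursor is shown in the MIR9-1 hairpin below, with the 5p arm and then the 3p arm in capitals.
MIR9-1: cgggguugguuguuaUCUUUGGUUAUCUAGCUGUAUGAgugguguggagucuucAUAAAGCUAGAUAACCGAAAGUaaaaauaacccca

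In the genome (GRCh38) miR-9 has 3 hairpins. MIR9-1 is at chromosome 1, 156420341 to 156420429, minus strand, in an intron of C1orf61. MIR9-2 is at chromosome 5, 88666853 to 88666939, minus strand, overlapping an exon of the long non-coding RNA LINC00461. MIR9-3 is at chromosome 15, 89368017 to 89368106, plus strand, in an intron of MIR9-3HG. Mature miR-128-3p is the same from MIR128-1 (chromosome 2, 135665397 to 135665478, plus strand, intron of R3HDM1) and MIR128-2 (chromosome 3, 35744476 to 35744559, plus strand, intron of ARPP21). Mature miR-218-5p is the same from MIR218-1 (chromosome 4, 20528275 to 20528384, plus strand, intron of SLIT2) and MIR218-2 (chromosome 5, 168768146 to 168768255, minus strand, intron of SLIT3). MIR137 is at chromosome 1, 98046070 to 98046171, minus strand, overlapping an exon of MIR137HG. MIR132 is at chromosome 17, 2049908 to 2050008, minus strand, outside any other GENCODE 29 gene. Reads of miR-9, miR-128-3p and miR-218-5p therefore cannot be assigned to one locus.

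The 7 miRNAs spanned more than 2 orders of magnitude in both libraries. hsa-miR-9-5p was the most abundant, with 1215 reads on the MBP-MCP resin and 1081 on the bare resin, or 5998 and 9703 reads per 1000000 miRNA reads (RPM). It ranked as the 21st and 15th most abundant of the 407 miRNAs. hsa-miR-128-3p followed with 791 and 632 reads (3905 and 5673 RPM), and hsa-miR-218-5p with 235 and 196 reads (1160 and 1759 RPM). miR-9-5p and miR-128-3p together held 84.6% of the members' reads on the MBP-MCP resin and 84.3% on the bare resin. hsa-miR-137 had 72 and 60 reads (355 and 539 RPM), and hsa-miR-9-3p, the lesser arm of miR-9, had 40 and 49 reads (197 and 440 RPM). The remaining pair, miR-124-3p and miR-132-3p, had fewer than 10 reads in each library, which placed them between the 206th and 232nd of the 407 miRNAs. hsa-miR-124-3p, the member most restricted to neurons, had 8 reads on the MBP-MCP resin and 7 on the bare resin (39.5 and 62.8 RPM). hsa-miR-132-3p had 9 and 6 reads (44.4 and 53.9 RPM). The order of the 5 most abundant members by RPM was the same on both resins, though the counting intervals of miR-137 and miR-9-3p overlapped on the bare resin. Those of miR-124-3p and miR-132-3p overlapped in each library.

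**Figure D1:**
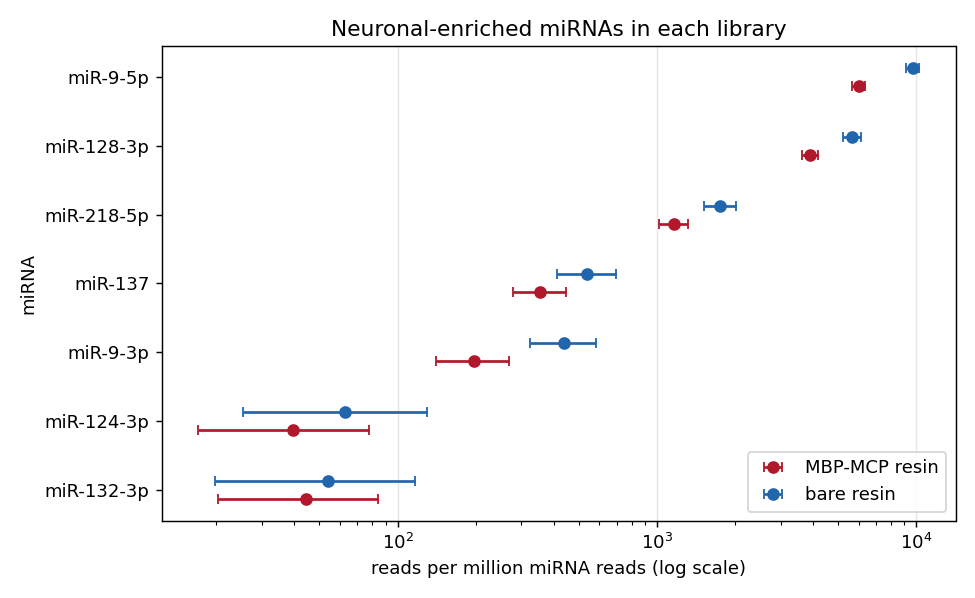
RPM (log scale) of the 7 neuronal-enriched miRNAs in the MBP-MCP resin library and the bare resin library, 1 library each; bars are exact 95% binomial intervals of counting error. The bare resin point lies to the right of the MBP-MCP resin point for every member, from miR-9-5p at 9703 against 5998 RPM down to miR-132-3p at 53.9 against 44.4 RPM.

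All 7 miRNAs took a smaller share of the MBP-MCP resin library than of the bare resin library. Summed, they made up 1.17% of the reads on the MBP-MCP resin (exact 95% interval 1.12 to 1.22) and 1.82% on the bare resin (1.75 to 1.90), a 1.56-fold lower share (1.47 to 1.65). Intervals of shares and ratios are exact Clopper-Pearson intervals of read numbers, and those of a difference between 2 miRNAs are exact intervals of a conditional odds ratio. They cover counting error only and say nothing of the spread between repeat pulldowns. Without miR-9-5p the summed share was 1.5-fold lower (1.37 to 1.63). These ratios are part of what the members were chosen on and are given as a description. Shares do not show the amount of RNA on a resin.

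By member, miR-9-5p was 1.62-fold lower on the MBP-MCP resin (1.49 to 1.76) and miR-128-3p 1.45-fold lower (1.31 to 1.61). miR-218-5p was 1.52-fold lower (1.25 to 1.84) and miR-137 also 1.52-fold lower (1.06 to 2.16). miR-9-3p was 2.23-fold lower (1.44 to 3.47) and was the member farthest from an equal share. For miR-124-3p the ratio of the MBP-MCP to the bare resin was 0.629, with an interval of 0.199 to 2.04, and for miR-132-3p it was 0.825 (0.262 to 2.82); at this depth no difference was detectable for either. Of the 7, 5 had an interval wholly below 1, against 13% of the 407 miRNAs of the table, and the same 5 were the members with at least 20 reads in a library, where 23.6% of 161 miRNAs had one. A ratio below 1 was found for 7 of 7 members and for 57% of all 407 miRNAs. Only miR-9-3p was at least 2-fold lower, as were 3.11% of the 161.

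**Figure D2:**
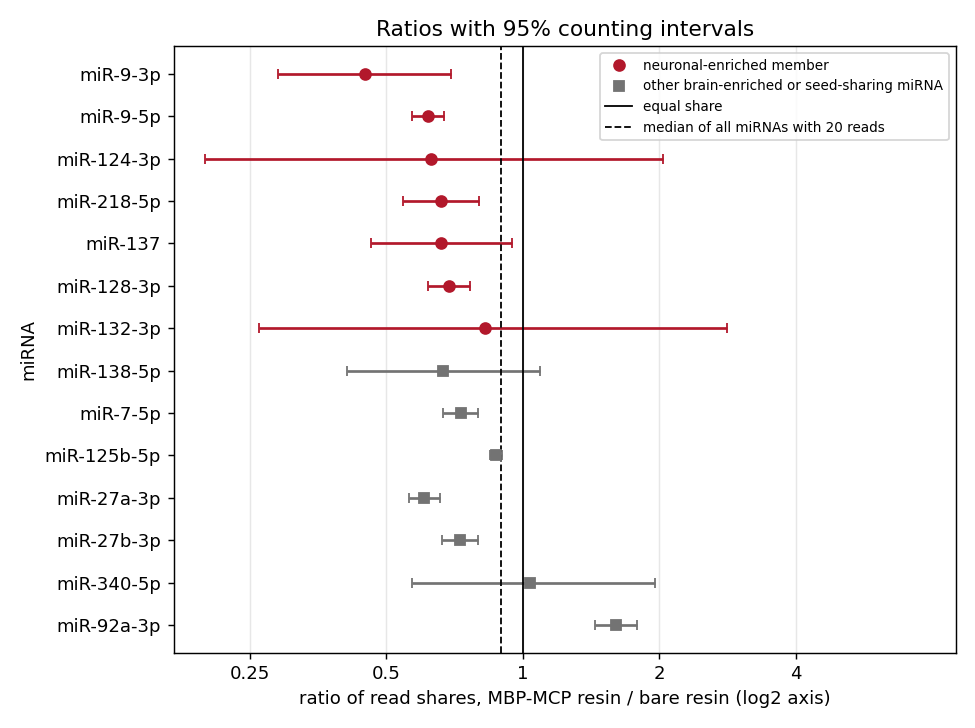
Ratio of read shares, MBP-MCP resin over bare resin (log2 axis), for the 7 members (circles) and 7 other brain-enriched or seed-sharing miRNAs (squares), with 95% counting intervals. The 7 members lie left of 1, from 0.449 for miR-9-3p to 0.825 for miR-132-3p, and the intervals of miR-124-3p and miR-132-3p cross it.

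The members were also set against each other. Among the 5 with at least 20 reads in a library, 10 pairs can be formed, and the ratio of one member to another does not depend on how the libraries are scaled. In 0 of the 10 pairs did the 95% interval of the difference exclude equality. miR-137 over miR-218-5p came to 1.0 (0.664 to 1.51) and miR-128-3p over miR-218-5p to 1.04 (0.835 to 1.30). The widest gap was between miR-9-3p and miR-128-3p, at 0.652 (0.413 to 1.03). The intervals leave room for differences of that size, so likeness is not shown.

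The arms of miR-9 can be set against each other within a library. There were 30.4 reads of miR-9-5p for each read of miR-9-3p on the MBP-MCP resin (22.2 to 42.7) and 22.1 on the bare resin (16.6 to 30.0). The arm ratio was thus 1.38 times as high on the MBP-MCP resin, with an interval of 0.880 to 2.16 that includes 1. Of 13 hairpins with at least 20 reads of each arm in each library, 9 had a higher ratio of 5p to 3p on the MBP-MCP resin. miR-9 had the largest such change upward, barely above let-7d at 1.37, so its place is not particular to it. The lowest value was 0.451, for miR-378a. The other arms of the members' hairpins were scarce. miR-132-5p had 11 reads against 1, a ratio of 6.05 with an interval of 0.879 to 260.4 that includes 1, and on the opposite side of 1 from miR-132-3p. miR-128-1-5p had 2 reads against 0. miR-212-5p, from the hairpin next to MIR132, had 3 against 0. miR-128-2-5p, miR-124-5p, miR-137-5p, miR-218-1-3p, miR-218-2-3p and miR-212-3p have no entry in the table.

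On the log2 scale (prior count 0.5) the median of the 7 members was −0.60, beside −0.20 over all 407 miRNAs, −0.16 over the 161 with at least 20 reads in a library and −0.06 over the 133 known ones among these. Ranked from the lowest log2 ratio among those 133, miR-9-3p was number 1, miR-9-5p number 7, miR-218-5p number 12, miR-137 number 13 and miR-128-3p number 17. Among all 161, miR-9-3p was number 4. Counting error leaves such places loose, with log2 intervals of −1.80 to −0.52 for miR-9-3p and −1.11 to −0.08 for miR-137. Of 53 known miRNAs that had at least 100 reads in both libraries, the members miR-9-5p, miR-218-5p and miR-128-3p held places 4, 5 and 6 from the lowest. Only miR-29c-3p, miR-152-3p and miR-27a-3p stood lower there. Among known miRNAs, the median for at least 1000 bare resin reads was −0.03, with −0.06 for at least 100 but under 1000 reads. It was −0.22 for at least 20 but under 100. The members with 20 reads lay below the median of their own range of abundance. Their ratios were known when they were chosen, and bare resin reads set the ranges as well as entering the ratio. The ranks and medians are therefore description only.

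**Figure D3:**
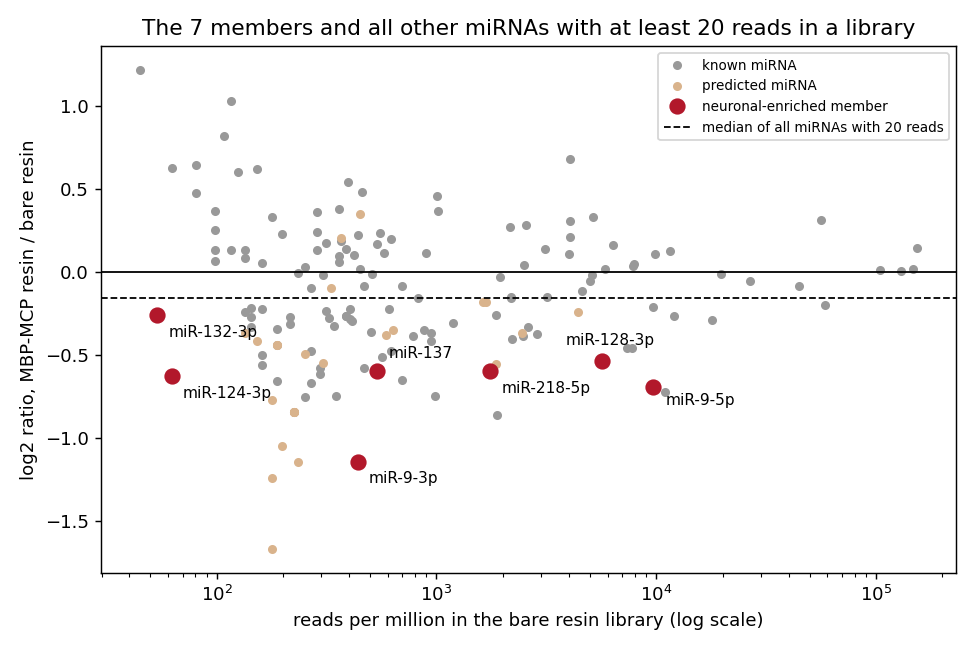
Log2 ratio of read shares, MBP-MCP resin over bare resin, against RPM in the bare resin library (log scale), for the 7 members (large points) and all other miRNAs that had at least 20 reads in a library; miRNAs with 0 bare resin reads are not drawn. All members lie under the dashed line, the median of −0.16, with miR-9-3p at −1.14 as the lowest.

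Beside each member with 20 reads, the 2 known miRNAs next above and next below it in bare resin reads give a local picture. Of these 20 neighbours, 9 had a ratio below 1, 5 had an interval wholly below 1, and 2 had a lower ratio than their member. Next to miR-9-5p stood miR-103a-3p, with 2150 reads against 1094 (ratio 1.08, 1.0 to 1.16), and miR-24-3p, with 1692 against 1079 (0.863, 0.799 to 0.932). miR-128-3p stood between miR-100-5p, with 1202 against 652 reads (1.01, 0.921 to 1.12), and miR-10a-5p, with 1306 against 571 (1.26, 1.14 to 1.39). miR-423-5p had the same 60 bare resin reads as miR-137 but 123 rather than 72 on the MBP-MCP resin. miR-660-5p, also beside miR-137, had 80 against 63 reads and a ratio of 0.698 (0.496 to 0.988), near the 0.660 of miR-137. The remaining neighbours of miR-137 were miR-486-5p (1.18) and miR-126-5p (0.994). miR-106b-3p had the same 49 bare resin reads as miR-9-3p but 104 rather than 40. The 2 neighbours with a lower ratio than their member were miR-27a-3p beside miR-9-5p and miR-29c-3p beside miR-218-5p.

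The miRNAs most like the members were sought by the absolute difference of log2 ratios over the 2 libraries, among known miRNAs of at least 100 reads in both. With 1 ratio per miRNA this is a weak measure. miR-9-5p was closest to miR-27a-3p (difference 0.03), miR-152-3p (0.05) and miR-218-5p (0.09). miR-128-3p was closest to miR-218-5p (0.06), miR-27b-3p (0.08) and miR-7-5p (0.08). miR-137 was closest to 3 other members, miR-218-5p (0.0042), miR-128-3p (0.06) and miR-9-5p (0.10). The nearest to miR-218-5p were miR-128-3p, miR-9-5p and miR-27a-3p. The nearest to miR-9-3p was miR-29c-3p, 0.28 away, whose log2 ratio of −0.86 lay within the counting interval of miR-9-3p (−1.80 to −0.52). At 40 and 49 reads, miR-9-3p has fewer reads than were asked of the candidates, as does miR-137 at 72 and 60. The counting interval of miR-137 (−1.11 to −0.08) is far wider than its differences given here, so which miRNAs are closest to it is not resolved.

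miR-128-3p and the miR-27 pair share a stretch of sequence. miR-27a-3p and miR-27b-3p, which come from the miR-23/27/24 clusters, hold the miR-128-3p seed 1 base further from the 5′ end. Capitals mark that stretch below.
miR-128-3p: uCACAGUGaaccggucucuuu
miR-27a-3p: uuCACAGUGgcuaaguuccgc
miR-27b-3p: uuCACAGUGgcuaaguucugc
These 3 were the only ones with CACAGUG anywhere among the 322 measured miRNAs with a RefSeq sequence. miR-27a-3p had 1345 reads against 1219, a ratio of 0.607 (0.561 to 0.656), and miR-27b-3p had 1085 against 821, a ratio of 0.727 (0.663 to 0.797), on either side of the 0.688 of miR-128-3p. Other members share shorter or shifted runs with measured miRNAs. miR-137 shares UAUUGC near its 5′ end with miR-92a-3p of the miR-17-92 cluster, which had 1319 reads against 452 and a ratio of 1.61 (1.44 to 1.79), against 0.660 (0.462 to 0.946) for miR-137, and the intervals of these 2 did not overlap. miR-92b-3p and miR-32-5p, with the same 6 bases, had ratios of 1.59 (0.722 to 3.85) and 1.65 (0.412 to 9.48), whose intervals overlapped that of miR-137. miR-9-3p shares AUAAAGC with miR-340-5p, which had 34 reads against 18 and a ratio of 1.04 (0.571 to 1.95), and AAAGCU with miR-320c and miR-320d, at 6 and 4 reads against 0. miR-132-3p shares UAACAG with miR-194-5p, at 14 reads against 3 (2.57, 0.716 to 13.9). No measured miRNA with a sequence had the same bases 2 to 8 as a member.

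The 6 members with a sequence had 31.8 to 50% G and C, with a median of 36.4%. Of these, 4 were under 40%, while miR-128-3p had 47.6% and miR-132-3p 50%. The median over 120 of the 133 known miRNAs with 20 reads was 47.7%. Across those 120, GC content and log2 ratio correlated with Spearman's rho 0.193 and Pearson's r 0.225, given as a description, since the points share 2 libraries. The 28 under 40%, which include 4 members, had a median log2 ratio of −0.19 and the other 92 one of −0.0040. Over 50 of the 53 known miRNAs with at least 100 reads in both libraries, both measures were weaker, with rho 0.107 and r 0.130. There the 13 under 40% had a median log2 ratio of −0.08 and the other 37 one of −0.01. The part of base composition in the members' ratios was not tested.

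Since the comparison asks about binding to SNHG15, the reverse complement of each of the 6 seeds was searched on the sense strand of the 10 SNHG15 transcripts of GENCODE 29, which are 505 to 3116 bases long. Of the 60 searches, 1 found a match. The motif ACCAAAG, for miR-9-5p, occurs once in the longest transcript, SNHG15-202, at bases 1706 to 1712, which is exon 1 of 2 and chromosome 7, 44984926 to 44984932 on the minus strand. The site is printed with the match in capitals.
SNHG15-202: gcaaagcaaagagaACCAAAGt
That motif is held by 20.9% of the 358 lincRNA transcripts within 10% of its length, and 19% of the 268 distinct seeds of the measured miRNAs have a match in SNHG15-202. In the other 9 transcripts, 4.10 to 7.09% of those seeds have one. The motifs AGCTTTA (miR-9-3p), CACTGTG (miR-128-3p), AGCAATA (miR-137), AAGCACA (miR-218-5p) and GACTGTT (miR-132-3p) are not among the letters of any of the 10. Which transcript the tagged construct carries was not given in the sources used, and a seed match is not a measured site.

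A further list of 27 brain-enriched miRNAs, outside the 7, was examined, 17 of them in the table. Of these, 11 had a ratio below 1 and 6 above, while 57% of all 407 miRNAs had a ratio below 1. Of the 17 intervals, 2 lay wholly below 1 and 0 above, while 13% of the 407 had one wholly below 1. The split of ratios below and above 1 rested on scaling: it was 10 and 7 under TMM, and 8 and 9 under DESeq2 size factors. The list's median log2 ratio was −0.23, and −0.46 over the 3 with at least 20 reads. Over all 17 it was −0.07 under TMM and at an equal share under DESeq2 size factors. miR-7-5p, abundant in neurosecretory cells, had 1139 reads against 859 and a ratio of 0.729 (0.667 to 0.798). The more abundant miR-125b-5p, which is widely expressed outside the brain too, had 10378 against 6539 and a ratio of 0.873 (0.846 to 0.901), which turned to 1.06 (1.03 to 1.09) with DESeq2 size factors. miR-138-5p, which limits dendritic spine growth, had 40 against 33 reads and a ratio of 0.667 (0.410 to 1.09). The other 14 had fewer than 20 reads, among them miR-149-5p with 19 against 10, miR-338-3p with 12 against 15 and miR-379-5p with 9 against 3, and 0 of the 14 had an interval that excluded 1.

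The label of the cells was set against marker miRNAs. Of 6 epithelial markers of the miR-200 family and miR-205, only miR-200a-3p was listed, with 1 read in each library. Mesenchymal markers (6 of 9 listed) summed to 62875 RPM on the MBP-MCP resin and 69569 on the bare resin, nearly all from miR-125b-5p, miR-100-5p and miR-221-3p (1014 against 451 reads). The other mesenchymal markers listed were miR-143-3p, with 90 against 78 reads, miR-222-3p, with 51 against 30, and miR-199a-3p, with 1 read in each library. Of the neuronal list, miR-9-5p and miR-128-3p were abundant and miR-124-3p was at 62.8 RPM or less. Glial markers (2 of 3 listed) summed to 69.1 RPM on the MBP-MCP resin and 162 on the bare resin. Erythroid markers (3 of 4) summed to 666 and 583 RPM, nearly all from miR-486-5p (133 against 62 reads). miR-144-5p had 2 against 1 reads and miR-144-3p 0 against 2, and miR-451a was not listed. Leukocyte markers (3 of 5) summed to 1377 and 1122 RPM, of which miR-155-5p gave most. miR-142-3p had 13 against 11 reads and miR-223-3p 1 read in each library. Muscle markers (1 of 4) summed to 44.4 and 8.98 RPM and the liver marker miR-122-5p to 19.7 and 0 RPM. The part of other cells' RNA in the members' ratios was not tested.

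The level of the ratios, unlike their order, depended on scaling. The median log2 ratio of the 161 miRNAs rose by 0.19 with TMM factors, by 0.28 with DESeq2 size factors and by 0.12 when the 5 most abundant miRNAs were left out of the totals. Rescaling shifts all log2 ratios by nearly the same amount, so the gap between the median of the members and that of the 161, −0.44, is fixed by construction and says nothing of stability. miR-9-5p, miR-9-3p, miR-128-3p and miR-218-5p kept an interval below an equal share under all 3, and miR-137 under none of them. Over the 161, intervals below and above 1 numbered 38 and 18 with total reads, 15 and 36 under TMM and 12 and 44 under DESeq2 size factors. miR-9-3p fell short of 2-fold under TMM (−0.95) and under DESeq2 size factors (−0.87), where miR-132-3p also moved to an equal share. Under total reads, miR-9-5p, miR-9-3p, miR-128-3p and miR-218-5p had an interval wholly below the median ratio of the 161, 0.897. miR-137, miR-124-3p and miR-132-3p did not. Such intervals were not confined to the members. Among other miRNAs with one were miR-29c-3p (0.452 to 0.669), miR-27a-3p (0.561 to 0.656) and miR-152-3p (0.455 to 0.778). miR-27b-3p (0.663 to 0.797) and miR-7-5p (0.667 to 0.798) had one too. The share of the 161 with such an interval was not counted, so nothing particular to the members is shown.

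**Figure D4:**
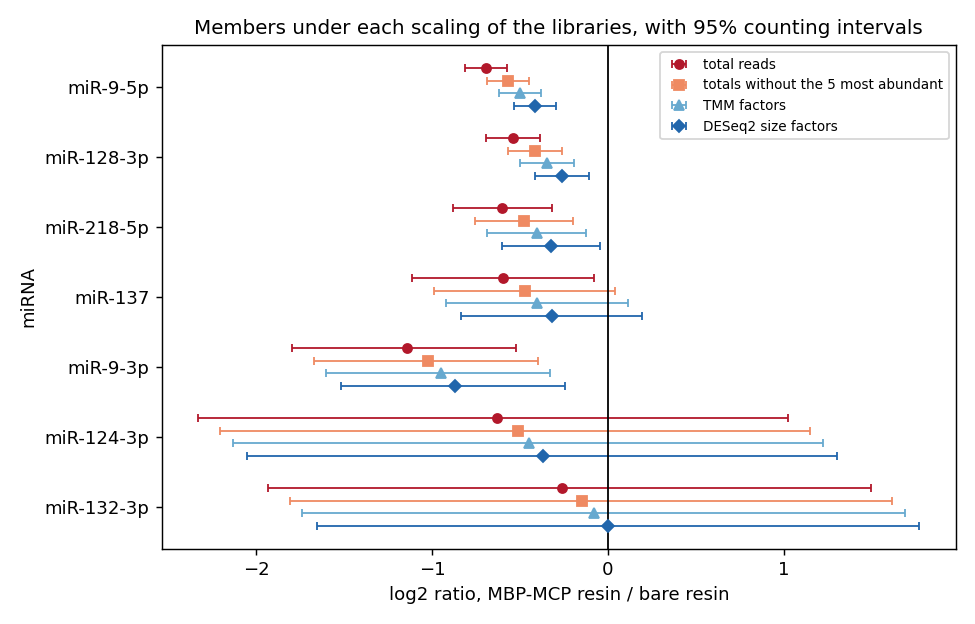
Log2 ratio, MBP-MCP resin over bare resin, of each member under total reads, totals without the 5 most abundant miRNAs, TMM factors and DESeq2 size factors, with 95% counting intervals. miR-9-5p moves from −0.69 to −0.42 and miR-128-3p from −0.54 to −0.26 without reaching 0, while the interval of miR-137 crosses 0 under each scaling but total reads.

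The authors' deposited table calls 1 of the 7 different, miR-9-3p, as lower, beside 2.46% of all miRNAs called lower. The authors' deposited table gives it a log2 fold change of −1.16, p = 0.0140 and an adjusted p of 0.259. For miR-9-5p the authors' deposited table has p = 0.0197 and an adjusted p of 0.321 at a log2 fold change of −0.69. The adjusted p-values of the other 5 in the authors' deposited table run from 0.698 for miR-128-3p and miR-218-5p to 1.0 for miR-132-3p. These values come from 1 library per resin and a spread that the file headers do not state.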

How the data were processed

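Small RNA from the 2 resins was extracted with the mirVana kit and QIAseq miRNA libraries were made, per the labels' protocols. The submitters' processing notes name GRCh38. Aligner, annotation release and use of molecular identifiers were not given in the sources used here. Per miRNA, the authors' deposited table holds raw read counts, reads per 1000000 (RPM, headed Tpm per the file headers), log2 fold changes, p-values and adjusted p-values. The deposited RPM values imply totals of 202629 and 111453 reads, 69 and 39 above the sums of the table. Rows with the members' exact names were taken. There were 0 columns of other samples. The lowest sum of reads of a miRNA in the table is 2.

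RPM and ratios were computed from the counts over the sums of the table, log2 ratios with a prior count of 0.5 in proportion to library size, and intervals as exact conditional binomial (Clopper-Pearson) intervals at 95%. Differences between members are conditional odds ratios with exact intervals. Python 3.11.15 with scipy 1.17.1, edgeR 4.0.16 (TMM) and DESeq2 1.42.0 (size factors) were used, and no count model was fitted. With 1 library per group a rule of size, 2-fold with at least 20 reads in a library, was used instead of a test. On simulated counts with counting error only and library sizes taken as known, 97.5% of intervals held the true ratio. That checks the calculation and cannot speak to the spread between pulldowns. RefSeq sequences matched 322 of 357 known names, and host genes and transcripts are GENCODE 29's. Named were the members, other arms of their hairpins, miR-212 and miRNAs sharing 6 bases at the 5′ end. Also named were the nearest in abundance and ratio, and up to 6 (brain) or 3 (marker) most abundant of each list. miR-378a and the let-7d hairpin were named after their values were seen, and miR-451a after its absence was. Alternatives were other scalings, a prior count of 5, other read and fold minimums and a 99% interval. The members, lists and rules were chosen with earlier results of these data known.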

Additional observations from a re-analysis of the deposited data

How the results depend on the processing

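Under TMM scaling, DESeq2 size factors and totals without the 5 most abundant miRNAs, in that order, the log2 ratio of miR-9-5p was −0.50, −0.42 and −0.57, and the ratio of the members' summed shares was 0.735, 0.778 and 0.699. That of miR-128-3p was −0.34 and −0.26 with the first and second. Over all miRNAs with 20 reads, intervals below 1 numbered 15, 12 and 21 and above 1 numbered 36, 44 and 28, against 38 and 18 with total reads. At least 2-fold lower were 2 miRNAs under TMM and 1 under DESeq2 size factors, against 5. With a minimum of 10 reads, 21 were 2-fold lower and 18 higher, and with 50 reads 0 and 0. At 1.5-fold, 24 were lower and 10 higher. With a 99% interval 4 members remained below 1, and the share of all miRNAs at that level was not computed. Totals over known miRNAs, totals implied by the RPM values (an alternative chosen after seeing the data, as were other scalings of the counts over all miRNAs) and a prior count of 5 moved no member beyond its counting interval. The cause of these shifts beyond the change of divisor was not tested. No paired analysis was possible because each resin has 1 library, and none could be left out. The read numbers limit miR-124-3p and miR-132-3p most.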
